A study of Mus musculus with 4 samples.

Results

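The genes described here mark the resident immune cells of the kidney and the machinery by which such cells present antigen. They were compared between whole kidneys of mice lacking Usp2 (Usp2-KO) and of wild-type (WT) littermates. Of 33 listed genes, 30 had a row of the array that its annotation pairs with that symbol alone, out of 19934 genes measured in this way. They comprise 14 macrophage genes, 2 genes shared by several leukocyte types, 8 lymphocyte genes and 6 genes of major histocompatibility complex (MHC) class II. Lck was named by no row, and the row annotated to both H2-DMb1 and H2-DMb2 was left out.

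All animals were C57BL6/N males aged 12 weeks, killed at Zeitgeber time 12, after 3 weeks of housing with 12 h of light a day. Kidney RNA was combined from 3 mice per pool, giving 2 WT pools and 2 Usp2-KO pools made from 6 littermate pairs, so that pools of the same number hold littermates. The labels do not describe the knockout allele or a perfusion of the kidneys. Usp2 encodes a deubiquitinating protease, and its log2 value was 11.63 and 11.71 in the WT pools and 7.65 and 7.60 in the Usp2-KO pools. Kidney identity was checked with 11 measured tubule, glomerular and endothelial markers, whose mean log2 value lay between 11.96 and 12.02 in all pools. An array gives no detection calls in this table, and the spread between pools of 3 mice is not that between animals.

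A network of macrophages and dendritic cells lies between the tubules of the healthy kidney, with few lymphocytes beside it. These cells sample filtered and tissue proteins, cut them in lysosomes and show the peptides on MHC class II molecules to CD4 T cells. Class II chains assemble with the invariant chain Cd74, are loaded with peptide with the help of H2-DM, and are transcribed under the master regulator Ciita. In whole tissue, fewer cells of a type and less RNA per cell cannot be told apart.

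Across the 30 genes the genotypes were close, and Ltb, a lymphotoxin subunit, had the largest difference. No member passed an adjusted p of 0.05 in limma, a moderated linear model fitted over all 19934 genes, in which 0.00502% of genes passed. At an unadjusted p under 0.05, 1 of the 30 members (Ltb, lower) was counted by limma, against 9.11% of all genes in either direction. The median absolute difference was 0.07 on the log2 scale over the members and 0.07 over all genes. The median difference, Usp2-KO minus WT, was -0.02 over the members and -0.01 over all genes, with 18 members lower, 11 higher and 1 equal, while 52.4% of all genes were lower and 47.4% higher. The 95% confidence interval of a member extended by a median of 0.18 to each side of its difference, so differences of that size could not be told from 0 with these 4 arrays.

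**Figure D1:**
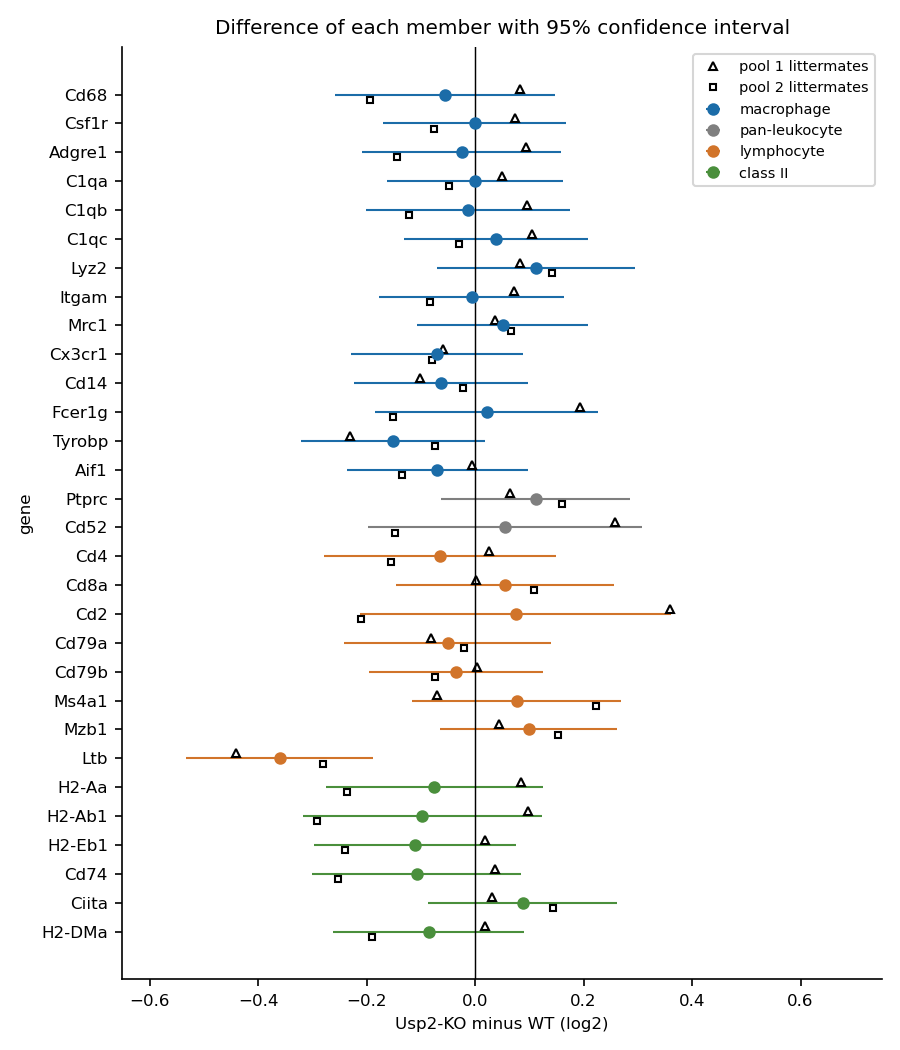
Difference between Usp2-KO and WT kidney of each of the 30 genes (horizontal axis, log2), with the mean as a coloured point, its 95% confidence interval from limma as a line, and the comparison of pool 1 and of pool 2 littermates as open symbols. Every interval other than that of Ltb (-0.53 to -0.19) contains 0.

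Ltb encodes lymphotoxin beta, a membrane protein of the tumour necrosis factor family that lymphocytes carry and that signals to stromal and epithelial cells through the receptor Ltbr. Its log2 value was 7.11 in WT pool 1 and 7.08 in WT pool 2, and 6.67 in Usp2-KO pool 1 and 6.80 in Usp2-KO pool 2. Both Usp2-KO pools lay below both WT pools. The difference was -0.36 (SE 0.08, 95% confidence interval -0.53 to -0.19), or 1.28-fold lower, and the littermate pools differed by -0.44 and -0.28. The unadjusted p was 0.00113 and the adjusted p over all genes 0.286 by limma. With the littermate pools as a block the limma adjusted p was 0.0345, a fit in which 0.768% of all genes passed. That fit has a prior of 90.6 degrees of freedom and so uses nearly the same spread for every gene. Leaving out a pool gave differences between -0.43 and -0.29, and over all alternatives the adjusted p lay between 0.0345 and 0.614.

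Ltb lies in the MHC region of chromosome 17, next to the genes of its family. The following measured genes on 1 side are Tnf, the cytokine tumour necrosis factor, and Lta, which encodes lymphotoxin alpha. Tnf had log2 values of 6.73 and 6.88 in the WT pools and 6.58 and 6.58 in the Usp2-KO pools, a difference of -0.23 (SE 0.08, unadjusted p = 0.0173, limma adjusted p = 0.439). Lta had 6.51 and 6.61 in the WT pools and 6.47 and 6.44 in the Usp2-KO pools, a difference of -0.11. For both genes the Usp2-KO pools lay below the WT pools, and neither difference passed. On the other side, Lst1 differed by 0.04 and the macrophage gene Aif1 by -0.07, and Apom, the fifth gene on that side, was at 0.24 (unadjusted p = 0.0114, limma adjusted p = 0.396). The 8 neighbours outside the family lay between -0.07 and 0.24, and none of them passed.

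**Figure D2:**
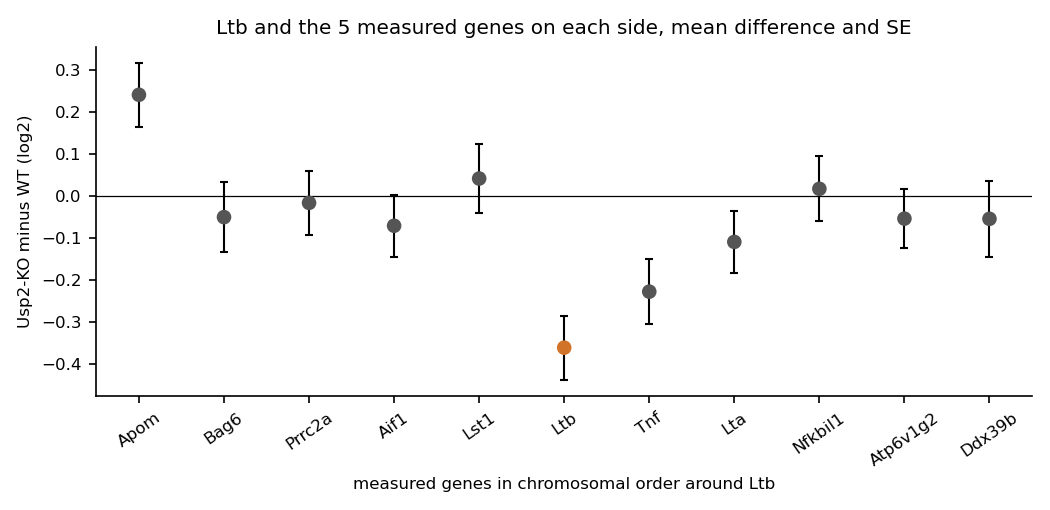
Difference between Usp2-KO and WT kidney (vertical axis, log2, with its SE as a bar) of Ltb, in orange, and of the 5 measured genes on each side of it in their order on the chromosome. Ltb (-0.36), Tnf (-0.23) and Lta (-0.11) are adjacent and all below 0, while Lst1 (0.04) and Nfkbil1 (0.02) beside them are not. Farther out Apom (0.24) is above 0, and Bag6, Prrc2a, Aif1, Atp6v1g2 and Ddx39b are below 0 as well, the lowest being Aif1 (-0.07).

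The 250 bases before the start of Ltb are shown because Ltb was the member with the lowest p, with motif matches in capitals. They come from RefSeq on build GRCm38.p6, chr17:35194257-35194506, plus strand, written 5′ to 3′:
Ltb: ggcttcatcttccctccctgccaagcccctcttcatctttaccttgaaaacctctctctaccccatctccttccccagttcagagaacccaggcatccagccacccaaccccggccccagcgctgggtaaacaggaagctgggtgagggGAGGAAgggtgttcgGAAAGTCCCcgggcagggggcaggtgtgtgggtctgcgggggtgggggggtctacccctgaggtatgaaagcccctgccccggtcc
The capitals mark GAGGAA, the core bound by the myeloid and lymphoid factor PU.1, and GAAAGTCCC, which on the opposite strand matches GGGANTTTC, the larger part of an NF-kappaB site. They start 101 and 86 bases before the gene's start. Of 32851 such windows of all genes, 23.3% hold GAGGAA and 0.941% hold GGGANTTTC, each on either strand. The latter was searched after the Ltb value and window had been seen, and a match is a description of letters, not of binding.

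A list of 11 genes around lymphotoxin signalling was drawn up after the Ltb value was seen and is therefore described without a test. Of its 10 measured genes 8 were lower and 2 higher. The receptor Ltbr differed by -0.05, the kinase Map3k14 by 0.06, and the NF-kappaB subunits of this pathway, Nfkb2 and Relb, by -0.12 each. Values of Nfkb2 were 8.70 and 8.78 in the WT pools and 8.67 and 8.56 in the Usp2-KO pools. None passed the limma threshold over all genes. Chemokines of lymphoid tissue that lie downstream of the receptor differed by 0.02 (Ccl19) and -0.00 (Cxcl13).

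Other genes ranked the pools as Ltb did, with WT pool 1 highest and Usp2-KO pool 1 lowest. That order was found in 5.3% of all genes and in 3 of the 30 members, Ltb, Cd14 and Tyrobp. Genes of other lists had it too, such as Cd28 and Cd6 of T cells and Coro1a and Folr2 of the macrophage and monocyte list. The fat cell genes Adipoq, Plin1, Cidec and Retn also had this order. The other 3 fat genes did not: Ucp1 and Fabp4 were highest in Usp2-KO pool 2 and differed by 0.21 and 0.12, and Lep differed by -0.02. Adipoq, the fat hormone adiponectin, had log2 values of 7.10 and 7.08 in the WT pools, 6.28 in Usp2-KO pool 1 and 6.95 in Usp2-KO pool 2. Of the 7 fat genes on the list 5 were lower, and their mean log2 value was 7.31 and 7.36 in the WT pools, 6.93 in Usp2-KO pool 1 and 7.35 in Usp2-KO pool 2. With the littermate block Adipoq, Cidec and Retn had limma adjusted p-values of 0.00378, 0.0171 and 0.014, and so passed in the same fit as Ltb. Without Usp2-KO pool 1 the difference of Ltb was -0.29. The part of fat tissue in the Ltb result was not tested. Markers of lymph nodes were on the same list, and Glycam1 and Madcam1, of their vessels, differed by 0.03 and -0.02.

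The other lymphocyte genes differed in both directions. Of the 8 measured, 4 were lower and 4 higher, with a median of 0.01. The 7 without Ltb, 3 of them lower and 4 higher, had a median of 0.05 and lay between -0.07 and 0.10. In no other lymphocyte gene than Mzb1 were the groups apart, and 9 of the 30 members had groups that did not overlap, against 38.9% of all genes. Of these 4 were higher and 5 lower, where the shares over all genes were 19.8% and 19.1%.

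Among T cell genes, Cd4 and Cd8a encode the co-receptors of helper and cytotoxic T cells. Cd4 had log2 values of 6.77 and 6.69 in the WT pools and 6.79 and 6.54 in the Usp2-KO pools, a difference of -0.07. Cd8a had 7.06 and 7.16 in the WT pools and 7.06 and 7.27 in the Usp2-KO pools, a difference of 0.06. Groups overlapped for both. Cd2, an adhesion receptor of T and NK cells, varied most between pools of 1 genotype among the members, with 6.14 and 6.30 in WT and 6.50 and 6.08 in Usp2-KO kidney. Its littermate comparisons were 0.36 and -0.21. Its difference was 0.28 when Usp2-KO pool 2 was left out and -0.13 when Usp2-KO pool 1 was.

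Among B lineage genes, Cd79a and Cd79b encode the signalling chains of the B cell receptor and differed by -0.05 and -0.04. Ms4a1, the B cell surface protein CD20, had 5.17 and 5.04 in the WT pools and 5.10 and 5.26 in the Usp2-KO pools, a difference of 0.08. Mzb1, a chaperone of antibody-secreting cells, had 7.47 and 7.41 in the WT pools and 7.52 and 7.56 in the Usp2-KO pools. The difference of Mzb1 was 0.10 (SE 0.07, limma adjusted p = 0.726), with both Usp2-KO pools above both WT pools. Ms4a1 and Cd79a were the 2 members with a mean log2 value under 6, so 28 of the 30 passed that filter on low signal.

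The genes shared by several leukocyte types were both higher in mean. Ptprc, the phosphatase CD45 found on nearly every leukocyte, had log2 values of 7.04 and 7.08 in the WT pools and 7.10 and 7.24 in the Usp2-KO pools. The groups did not overlap, and the difference was 0.11 (SE 0.08, 95% confidence interval -0.06 to 0.29, limma adjusted p = 0.708). Cd52, a small surface glycoprotein of lymphocytes and monocytes, had 7.92 and 7.95 in the WT pools, 8.17 in Usp2-KO pool 1 and 7.81 in Usp2-KO pool 2. Its littermate comparisons were 0.26 and -0.15, and its difference was 0.24 when Usp2-KO pool 2 was left out and -0.13 when Usp2-KO pool 1 was.

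The 14 macrophage genes were measured at nearly equal levels in the genotypes. Of them 9 were lower, 4 higher and 1 equal, with a median of -0.01 and a range of -0.15 to 0.11. At an unadjusted p under 0.05, 0 macrophage genes were counted by limma. With the littermate block the limma adjusted p of each was at least 0.699.

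Receptors that define the lineage differed little. Csf1r, the receptor for the growth factors that keep macrophages alive, had log2 values of 9.49 and 9.54 in the WT pools and 9.57 and 9.46 in the Usp2-KO pools. Its difference was -0.00 (SE 0.07, 95% confidence interval -0.17 to 0.17). Adgre1, the F4/80 antigen, differed by -0.02 and Itgam, an integrin of myeloid cells, by -0.01, with overlapping groups. Cx3cr1, the fractalkine receptor of resident cells, had 7.90 and 7.89 in the WT pools and 7.84 and 7.81 in the Usp2-KO pools, a difference of -0.07 with groups apart. Mrc1, the mannose receptor, was apart in the other direction, with 6.53 and 6.50 in the WT pools and 6.57 in both Usp2-KO pools, a difference of 0.05. Cd14, the co-receptor for bacterial lipopolysaccharide, had 6.57 and 6.54 in the WT pools and 6.46 and 6.52 in the Usp2-KO pools, a difference of -0.06 with groups apart.

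The 3 chains of C1q, the recognition molecule of the classical complement pathway, which tissue macrophages make, lie side by side on chromosome 4. C1qa had log2 values of 7.97 and 7.99 in the WT pools and 8.02 and 7.94 in the Usp2-KO pools, and the means were equal. C1qb had 9.16 and 9.36 in the WT pools and 9.26 and 9.23 in the Usp2-KO pools, a difference of -0.01. C1qc had 8.36 and 8.47 in the WT pools and 8.46 and 8.44 in the Usp2-KO pools, a difference of 0.04. All 3 were lowest in WT pool 1 or Usp2-KO pool 2, and groups overlapped in each.

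Tyrobp, the adaptor DAP12 that carries the signals of TREM2 and related receptors, had the lowest p of the macrophage genes. Its log2 value was 8.03 and 7.99 in the WT pools and 7.80 and 7.91 in the Usp2-KO pools. The groups did not overlap, and the difference was -0.15 (SE 0.08, 95% confidence interval -0.32 to 0.02, unadjusted p = 0.0734, limma adjusted p = 0.587). Trem2 itself differed by -0.09. Fcer1g, a related adaptor that serves Fc receptors, differed by 0.02, with littermate comparisons of 0.19 and -0.15. Lyz2, the lysozyme of myeloid cells, had 7.76 and 7.85 in the WT pools and 7.85 and 7.99 in the Usp2-KO pools. Its difference of 0.11 (SE 0.08, limma adjusted p = 0.723) was the highest of the macrophage genes. Aif1, an actin-binding protein of activated macrophages, had 6.07 and 6.17 in the WT pools and 6.07 and 6.04 in the Usp2-KO pools, a difference of -0.07 with groups narrowly apart. Cd68, a lysosomal membrane protein, differed by -0.06.

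Class II genes had the lowest median of the groups, -0.09 over 6 genes, against -0.01 for macrophage and 0.01 for lymphocyte genes. Of the 6 genes 5 were lower and 1 higher, and none passed any threshold: at an unadjusted p under 0.05, 0 class II genes were counted by limma. H2-Ab1, the beta chain of I-A, had log2 values of 10.64 in WT pool 1, 10.88 in WT pool 2, 10.73 in Usp2-KO pool 1 and 10.59 in Usp2-KO pool 2. H2-Aa, its alpha chain, had 10.29 and 10.42 in the WT pools and 10.37 and 10.18 in the Usp2-KO pools. WT pool 2 was highest and Usp2-KO pool 2 lowest in each, with the other pools between them, so the groups overlapped. The differences were -0.10 for H2-Ab1 (SE 0.10, 95% confidence interval -0.32 to 0.12) and -0.08 for H2-Aa (SE 0.09).

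H2-Eb1, the beta chain of I-E, had 10.64 and 10.78 in the WT pools and 10.66 and 10.54 in the Usp2-KO pools, a difference of -0.11 (SE 0.08, limma adjusted p = 0.731). Cd74, the invariant chain, had 10.96 and 11.14 in the WT pools and 11.00 and 10.88 in the Usp2-KO pools, a difference of -0.11 (SE 0.09). H2-DMa, a chain of the peptide exchange factor, had 8.82 and 8.92 in the WT pools and 8.84 and 8.73 in the Usp2-KO pools, a difference of -0.09.

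These 5 genes ranked the 4 pools in the same order: WT pool 2, Usp2-KO pool 1, WT pool 1, Usp2-KO pool 2. That order was noticed after the values were seen, and 7.16% of all genes had it. Of the other 25 members, Cd79b alone had it as well. The gap between the WT pools had a median of 0.14 over the 5 genes and that between the Usp2-KO pools of -0.12, against a median genotype difference of -0.10. In the pool 1 littermates their median difference was 0.04, and in the pool 2 littermates it was -0.24. The spread between pools of 1 genotype was thus larger than the difference between genotypes for each of them, which was also the case for 73.3% of all genes. Without Usp2-KO pool 2 H2-Aa was at 0.02, and without WT pool 2 H2-Ab1 was at 0.03.

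Ciita, the transactivator that class II transcription needs, did not share that order. Its log2 value was 7.43 and 7.29 in the WT pools and 7.46 and 7.43 in the Usp2-KO pools, with WT pool 2, where the chains were highest, at the lowest value. The groups did not overlap, and the difference was 0.09 (SE 0.08, 95% confidence interval -0.09 to 0.26, limma adjusted p = 0.784).

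**Figure D3:**
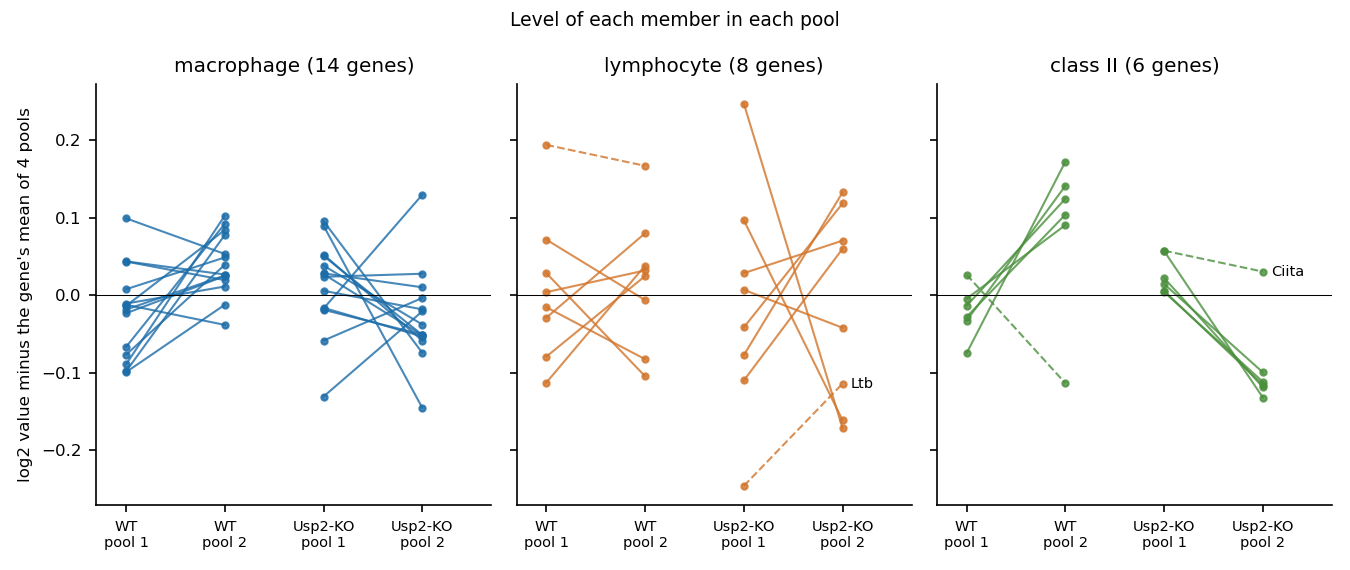
Log2 value of each gene minus its mean over the 4 pools (vertical axis), by pool, with lines joining pools of 1 genotype, for macrophage, lymphocyte and class II genes. The class II genes other than Ciita (dashed) are highest in WT pool 2 and lowest in Usp2-KO pool 2, while Ltb (dashed) is the lymphocyte gene with both WT pools high and both Usp2-KO pools low.

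The promoters of H2-Aa and H2-Eb1 are shown because these neighbours on chromosome 17 varied together over the pools. Class II promoters carry an X box and a Y box, which is an inverted CCAAT, and Ciita acts through the factors bound there. The windows are the 250 bases before each gene's start from RefSeq on build GRCm38.p6, 5′ to 3′, at chr17:34287824-34288073 on the minus strand and chr17:34305617-34305866 on the plus strand:
H2-Aa: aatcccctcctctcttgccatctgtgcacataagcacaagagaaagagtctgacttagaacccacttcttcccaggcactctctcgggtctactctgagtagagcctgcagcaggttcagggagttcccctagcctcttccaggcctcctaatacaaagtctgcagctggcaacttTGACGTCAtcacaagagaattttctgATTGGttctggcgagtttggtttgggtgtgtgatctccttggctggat
H2-Eb1: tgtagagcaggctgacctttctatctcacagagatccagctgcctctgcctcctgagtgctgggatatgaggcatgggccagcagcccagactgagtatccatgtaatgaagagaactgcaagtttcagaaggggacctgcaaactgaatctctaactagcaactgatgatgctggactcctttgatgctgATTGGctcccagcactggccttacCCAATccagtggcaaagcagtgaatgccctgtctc
Capitals mark CCAAT or its reverse ATTGG in both, and in H2-Aa also TGACGTCA, the core of a cAMP response element. ATTGG starts 48 bases before the start of H2-Aa and 59 bases before that of H2-Eb1, which has CCAAT 35 bases before its start too. TGACGTCA starts 74 bases before the start of H2-Aa. CCAAT on either strand is in 33.8% of all 32851 windows and TGACGTCA, which was added after the windows were seen, in 1.55%. A pattern for the X box, with variable letters left free, was found in the window of H2-DMb1 and in 0.0487% of all windows. Neither window shown held it, but the search asked for an exact match at every fixed letter. A stretch of the H2-Eb1 window differs from the pattern at its first letter only. The missing match therefore does not show that these promoters lack an X box. Of the 33 listed genes 19 had a window, with 22 windows between them. Of these genes 8 held CCAAT and 12 held GAGGAA in any of their windows. Of all 32851 windows 33.8% held CCAAT and 23.3% GAGGAA, a share per window and not per gene.

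Among the genes around the class II chains on chromosome 17, differences lay between -0.10 (Psmb8) and 0.0025 (Tap2), and none passed. H2-Ea, named for the alpha chain of I-E, had 5.17 and 5.31 in the WT pools and 5.21 and 5.12 in the Usp2-KO pools, a difference of -0.07. These values lie under 6, the filter on low signal. The pools were in the same order as in the 5 class II genes, an order that 7.16% of all genes had. H2-Ob, an inhibitor of H2-DM made in B cells, had 7.39 and 7.36 in the WT pools and 7.22 and 7.42 in the Usp2-KO pools, a difference of -0.05. H2-Eb2, which lies beyond H2-Eb1, differed by -0.06 with values between 6.46 and 6.57. Of the 16 measured genes of the wider class II pathway, 9 were higher and 7 lower, with a median of 0.02, and 0 had an unadjusted p under 0.05 by limma. H2-Oa differed by -0.11, Rfxap, a subunit of the X box factor, by 0.11, and Marchf1, the ligase that removes class II from the surface, by 0.10. Class I genes were split likewise, with 7 of 16 higher and a median of -0.04. Examples are Pdia3, a chaperone of the loading complex, at 0.18, Psme2, a proteasome activator, at 0.13, and Nlrc5, the class I counterpart of Ciita, at -0.14.

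The littermate comparisons differed in sign for many of the macrophage and class II members. Of the 30 members, 23 were higher in the pool 1 Usp2-KO than in its WT littermates, where 54% of all genes were higher. In the pool 2 littermates 7 of 30 were higher, where 46.5% of all genes were. Higher in pool 1 and lower in pool 2 were 17 of the 30, against 27.7% of all genes. They included 8 of the 14 macrophage genes, among them Cd68, Csf1r, Adgre1 and all C1q chains, 5 of the 6 class II genes and 3 of the 8 lymphocyte genes. Since genes of 1 cell type vary together in whole tissue, these counts are not independent. The same sign in both comparisons was found in 12 of 30 members, among them 4 of the 8 lymphocyte genes, and in 51.5% of all genes.

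**Figure D4:**
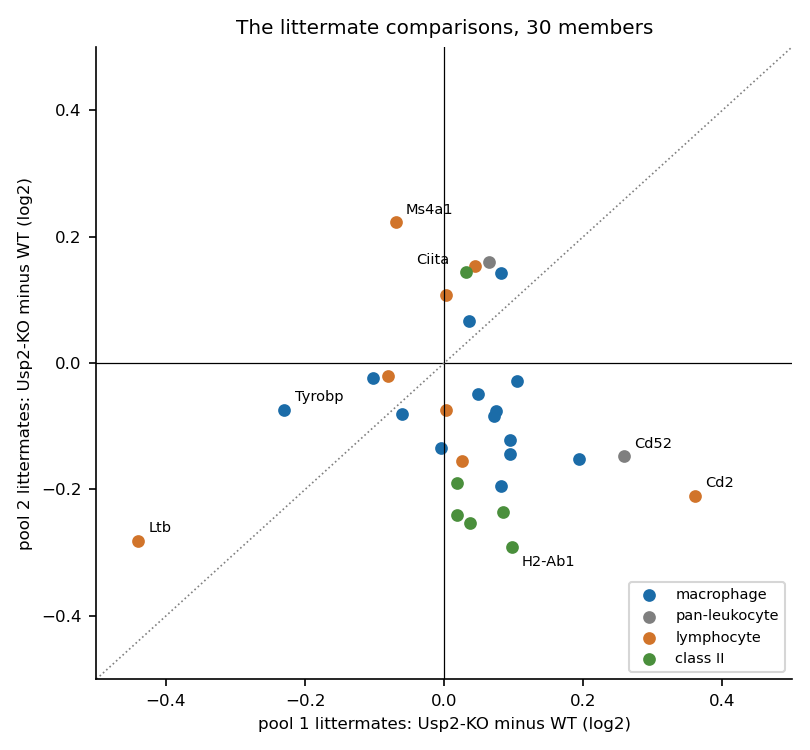
Difference between Usp2-KO and WT kidney in the pool 1 littermates (horizontal axis, log2) and in the pool 2 littermates (vertical axis, log2) for the 30 genes, coloured by group, with a dotted line of equal differences. Of the 30 points 17 lie to the right of and below 0, class II genes among them, and Ltb lies apart at -0.44 and -0.28.

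Further markers of immune cells, from lists drawn up beside the members, gave a like picture for myeloid cells. Of 22 other macrophage and monocyte genes 12 were higher and 10 lower, with a median of 0.00, and 0 had an unadjusted p under 0.05 by limma. Csf3r was at -0.14, Cd53 at 0.14 and Ccr2 at 0.11. The 7 ligands of macrophage and chemokine receptors each had a lower mean in Usp2-KO kidney, at a median of -0.10, and none reached an unadjusted p of 0.05. Cxcl16 was at -0.14, Cxcl12 at -0.12 and Ccl2 at -0.13. Il34 and Csf1, which bind Csf1r, were at -0.07 and -0.06, and Cx3cl1, the ligand of Cx3cr1, at -0.06.

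Of 20 other T and NK cell genes 15 were lower and 5 higher, with a median of -0.06. At an unadjusted p under 0.05, 3 were lower and 0 higher by limma, where 3.88% and 5.22% of all genes were. Cd3e, a chain of the T cell receptor complex, had log2 values of 8.15 in both WT pools and 7.91 and 7.94 in the Usp2-KO pools, a difference of -0.23 (SE 0.07, limma adjusted p = 0.385). Cd28, a costimulatory receptor, was at -0.32 (SE 0.10, limma adjusted p = 0.398) and Ncr1, a receptor of NK cells, at -0.24 (SE 0.09). The mean log2 values of Cd28 (5.48) and Ncr1 (5.36) lie under 6, the filter on low signal, which 12 of the 20 genes passed. Cd3e, Cd3d and Cd3g are at most 35 measured genes away from Usp2, on chromosome 9. Of these Cd3d was at -0.20 and Cd3g at 0.01, with mean log2 values of 5.95 and 5.97. Thy1, a surface protein of T cells, lies next to Usp2 among the measured genes and was at -0.05, with overlapping groups. Among the 30 members, Cx3cr1 alone is on that chromosome, 725 measured genes away. Of 16 other B and plasma cell genes 13 were lower and 3 higher; their median was -0.03, and 0 had an unadjusted p under 0.05 by limma. Examples are Fcrla at -0.18 and Blk, a kinase of B cells, at -0.13.

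Of 10 dendritic cell genes 6 were lower and 4 higher, with a median of -0.02. Xcr1, the receptor of cross-presenting cells, was at -0.21 (limma unadjusted p = 0.0209, adjusted p = 0.446). Of 13 neutrophil and mast cell genes 8 were lower, 4 higher and 1 equal, with a median of -0.03. Cxcr2 was at -0.33 with a mean log2 value of 4.05, and S100a8 at -0.16 with a mean of 5.23. Both means lie under 6, the filter on low signal, which 5 of the 13 genes passed. The 6 measured blood genes each had a lower mean in Usp2-KO kidney (median -0.10). Alas2, the heme synthesis enzyme of red cell precursors, had 8.53 and 8.84 in the WT pools and 8.36 and 8.25 in the Usp2-KO pools, a difference of -0.38 (SE 0.10, limma adjusted p = 0.34, and 0.0264 with the littermate block). The part of blood in the kidneys in any difference above was not tested. Of 13 other complement genes Cd46, a complement regulator, was at 0.34 (SE 0.07, limma adjusted p = 0.286) and C4b at -0.18, with a median of -0.00.

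**Figure D5:**
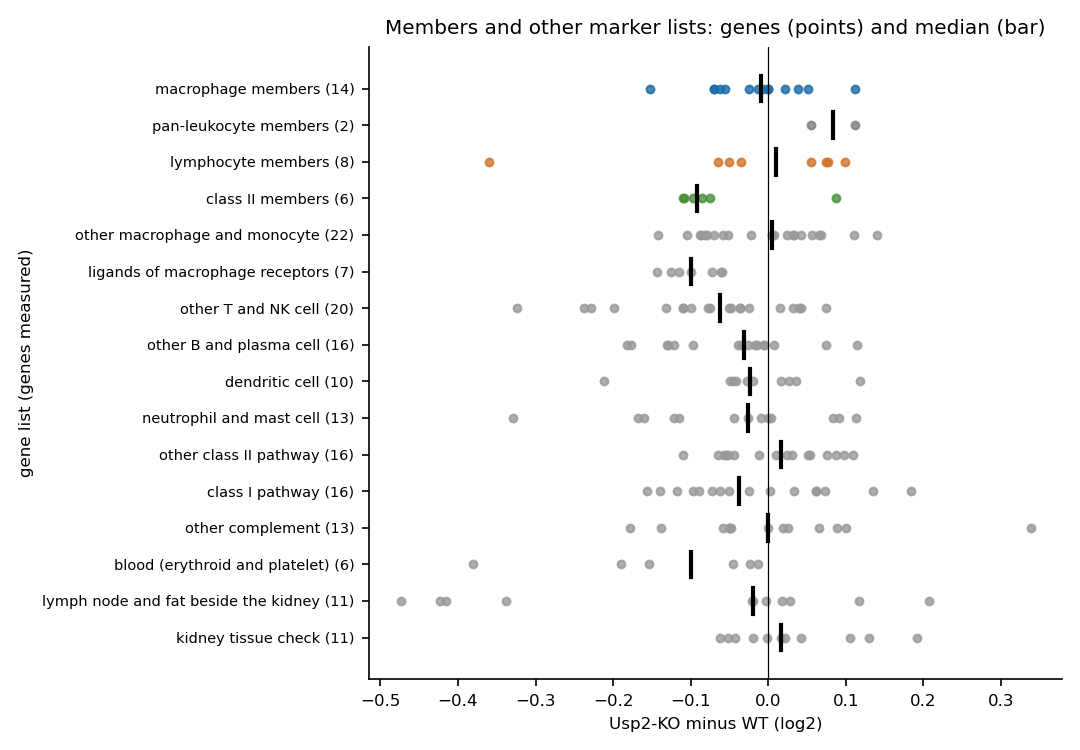
Difference between Usp2-KO and WT kidney (horizontal axis, log2) of every measured gene of the member groups (coloured) and of the other lists (grey), with the list's median as a bar and its number of genes in brackets. Medians lie between -0.10 and 0.08, and Ltb is the member farthest from 0.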

How the data were processed

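The deposited table holds log2 expression values, 1 per array and row. The authors made these log2 values with RMA, as the submitters' processing notes say. RMA subtracts background, equalises the distributions of the arrays and summarises the probes of a row. Software version, row filters and genome build are not given in the sources used here. The labels' protocols state that 300 ng of RNA from each pool was labelled for an Affymetrix whole-transcript array.

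Of 28270 rows, 21780 had 1 symbol in the platform's annotation, 1617 several, and 4873 were not listed. The row of highest mean over the 4 arrays stood for its symbol, and low values were kept. The genotypes were compared with limma 3.58.1 (R 4.3.3) by lmFit and eBayes, with Benjamini-Hochberg adjustment over 19934 genes and a prior of 6.87 degrees of freedom. An exact permutation test of 2 pools against 2 cannot give a p below 0.333.

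The series' design text keeps littermates in pools of the same number. Across genes, the departures of such pools from their genotype's mean correlated at -0.121. In simulated data of 19934 genes this comparison recovered 2.5% of changes of 0.25 (log2), 71.5% of 0.5 and 99.8% of 1. The members, gene lists and tests were chosen with earlier results of these data known. Up to 5 members of smallest p per group and the C1q chains are given with their values in each pool, and up to 3 genes per other list. Others, such as Csf1r, Mrc1, Cd2, H2-Aa, Cd3d, Cd3g, Thy1, H2-Ea, H2-Ob, H2-Eb2, Lst1, Apom, Trem2 and the lymphotoxin genes, were added after their values were seen. Alternatives were the littermate block and its crossing, an intensity trend, a robust prior, 2 signal filters, other uses of a gene's rows, repeated quantile normalization, median centring, a threshold of 0.10 and fits that omit 1 pool. Promoter windows were matched by symbol. Figures were drawn with matplotlib 3.10.9.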

Additional observations from a re-analysis of the deposited data

How the results depend on the processing

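The limit of these values is the number of arrays, 2 pools per genotype with 3 mice in each, and the table gives no signal over background. No member passed an adjusted p of 0.05 without the littermate block, and with it 1 (Ltb) passed. The replicate block changed no other call among the 30 members. Over all genes limma called 1 gene, against 153 with the littermate block, 1 with crossed pairing, 18 with an intensity trend, 7 with either filter on signal and 2 at an adjusted p under 0.10, and 1 to 2 when a pool was left out. At an unadjusted p under 0.05, 1 to 4 members were counted when a pool was left out. The count of 4 was reached without Usp2-KO pool 2 (Ltb, Tyrobp, Cd52 and Cd2, the last 2 higher). In each such fit the lone pool of a genotype is assumed to vary like the other genotype's pools.

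When a pool was left out, the median lay between -0.057 and 0.038 for macrophage genes, between -0.013 and 0.007 for lymphocyte genes and between -0.167 and -0.015 for class II genes. Repeated quantile normalization gave a lymphocyte median of 0.026, against 0.0098, and no lymphocyte gene was left by the filter at the median of all genes. Of 373 alternative values of members, 22 were opposite in sign to the reported one, 21 of them when a pool was left out. Itgam was at 0.031 with repeated quantile normalization. The ranges over the pools left out, for the 15 genes concerned, were Cd68 -0.173 to 0.0615, Csf1r -0.052 to 0.05, Adgre1 -0.104 to 0.0545, C1qb -0.109 to 0.083, C1qc -0.02 to 0.096, Itgam -0.062 to 0.049, Fcer1g -0.067 to 0.109, Cd52 -0.128 to 0.238. For the rest they were Cd4 -0.194 to 0.064, Cd8a -0.05 to 0.16, Cd2 -0.135 to 0.284, Cd79a -0.136 to 0.0345, Ms4a1 -0.0035 to 0.157, H2-Aa -0.17 to 0.019, H2-Ab1 -0.221 to 0.0265. The other 15 members, Ltb, Tyrobp, H2-Eb1, Cd74, H2-DMa and Ciita among them, kept their sign; C1qa, at 0 with all pools, lay between -0.038 and 0.038.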
